A study of Mus musculus with 8 samples.

Results

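Skeletal muscle owes much of its contractile character to the sarcomeric myosin heavy chains, the motor proteins of the thick filament. The 9 genes of this family described here are Myh3, Myh8, Myh2, Myh1, Myh4, Myh13, Myh7, Myh6 and Myh7b. They were taken from the 19752 genes with values as a fixed list of names, whatever their levels. Each had 1 probe set with a single gene symbol, and all 9 passed the filter on dim genes that left 14814 genes for testing.

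The values come from a study of interleukin 33, an alarmin cytokine, in the regeneration of aged muscle. Male mice on the C57BL/6 background, aged 99 weeks per the labels and 22 months per the design text, had the tibialis anterior muscle frozen with a chilled metal probe. One group (4 arrays) received recombinant interleukin 33 (rIL-33) at 2 µg per injection into the peritoneal cavity, on the day before and the day after the injury, and the other group (4 arrays) carried the treatment label PBS. Whole muscles were taken on day 8 and their RNA was hybridised to Affymetrix Mouse Gene 1.0 ST arrays. All 8 muscles were injured, and an uninjured or a young group was not analysed here. The field for genetic background reads C57BL/6 for replicates 1 and 2 of either group and WT for replicates 3 and 4, and the sources used here do not give what separates them. Nor do they say whether every array had its own animal, so p-values reflect only the spread between these samples, which may be technical. In whole muscle, fewer fibres of a type and less RNA per fibre cannot be told apart.

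Each sarcomeric myosin heavy chain gene encodes a motor of its own speed, and a muscle fibre is classed by the chain it makes. Fibres rebuilt after injury first make the embryonic chain (Myh3) and the neonatal chain (Myh8), and then replace them with adult chains, which in the tibialis anterior of mice are mainly the fast IIb (Myh4), IIx (Myh1) and IIa (Myh2) forms. The slow chain (Myh7) is shared with the heart, where Myh6 encodes its faster counterpart, Myh13 is the chain of the extraocular muscles, and Myh7b is a distant relative that hosts a microRNA gene in an intron.

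In the RefSeq annotation, 6 of the genes stand side by side on chromosome 11 in the order Myh3, Myh2, Myh1, Myh4, Myh8 and Myh13, with Myh6 and Myh7 together on chromosome 14 and Myh7b alone on chromosome 2. The promoter windows of the fast and immature genes are shown because the adult fast genes and Myh8 share a stretch of sequence that Myh3 lacks. Each window runs from 250 bases before to 50 bases after the RefSeq start (build GRCm38.p6), 5′ to 3′ on the gene's own strand. In the windows of Myh2, Myh1 and Myh4 the capitals mark a run of 20 bases that all 3 share, in that of Myh8 the part of it (14 bases) found there too, and in that of Myh3 a TATAAA match. The other windows shown hold such a match on either strand as well, left unmarked.
Myh2 (chr11:67170777-67171076, plus strand): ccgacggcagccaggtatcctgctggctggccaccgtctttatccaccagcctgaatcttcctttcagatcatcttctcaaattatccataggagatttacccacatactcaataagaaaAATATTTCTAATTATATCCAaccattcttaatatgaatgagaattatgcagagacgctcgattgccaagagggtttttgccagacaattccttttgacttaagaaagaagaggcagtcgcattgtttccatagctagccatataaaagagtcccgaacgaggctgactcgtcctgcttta
Myh1 (chr11:67199852-67200151, plus strand): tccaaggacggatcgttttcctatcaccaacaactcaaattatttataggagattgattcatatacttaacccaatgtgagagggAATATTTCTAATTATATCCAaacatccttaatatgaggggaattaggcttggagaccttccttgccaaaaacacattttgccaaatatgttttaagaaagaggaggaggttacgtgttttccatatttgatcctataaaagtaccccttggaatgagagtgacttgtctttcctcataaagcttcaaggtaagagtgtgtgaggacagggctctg
Myh4 (chr11:67237562-67237861, plus strand): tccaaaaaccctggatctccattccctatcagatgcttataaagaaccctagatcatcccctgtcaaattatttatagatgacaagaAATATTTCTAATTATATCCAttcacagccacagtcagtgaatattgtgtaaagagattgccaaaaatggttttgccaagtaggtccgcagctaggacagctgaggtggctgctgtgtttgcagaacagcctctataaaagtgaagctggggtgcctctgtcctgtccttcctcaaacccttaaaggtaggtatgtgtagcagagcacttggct
Myh8 (chr11:67276874-67277173, plus strand): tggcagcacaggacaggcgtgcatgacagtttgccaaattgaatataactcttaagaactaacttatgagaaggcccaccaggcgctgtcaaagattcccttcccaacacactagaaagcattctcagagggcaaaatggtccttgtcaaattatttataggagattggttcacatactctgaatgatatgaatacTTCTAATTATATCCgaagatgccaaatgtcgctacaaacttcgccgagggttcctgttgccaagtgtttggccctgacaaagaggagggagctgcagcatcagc
Myh3 (chr11:67078050-67078349, plus strand): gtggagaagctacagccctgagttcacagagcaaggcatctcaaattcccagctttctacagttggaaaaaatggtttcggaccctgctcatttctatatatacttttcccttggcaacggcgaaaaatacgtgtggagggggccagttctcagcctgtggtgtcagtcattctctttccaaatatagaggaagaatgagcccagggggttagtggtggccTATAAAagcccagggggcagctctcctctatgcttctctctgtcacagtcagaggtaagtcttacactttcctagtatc

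On either strand, the 20-base run AATATTTCTAATTATATCCA was in 3 of 32851 RefSeq windows of this length (0.00913%), those of the 3 adult fast genes. The 14-base run TTCTAATTATATCC was in 4 windows (0.0122%), those genes and Myh8. Counted from the gene start, the run began at -130 in Myh2, -165 in Myh1, -163 in Myh4 and -54 in Myh8. The longest stretch shared by Myh8 with Myh1 was another, of 22 bases, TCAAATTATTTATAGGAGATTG. Myh3 shared at most 11 bases with any other member's window. Its TATAAA match began at -29. Myh1 and Myh4 had matches at a like place, -32 and -31, Myh2 had one at 10, and Myh8 one at -96 on the other strand. Such matches on either strand were in 13.6% of all windows. An E-box, CANNTG, was found in 72.3% of windows and in those of 7 of the 9 members, Myh2 and Myh1 being without a match. These matches describe letters, and binding was not measured.

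The arrays were alike in median intensity, between 222.6 and 232.2. Their spread was less alike, with lower quartiles from 88.3 to 107.3 and upper quartiles from 511.6 to 590.4. The arrays differed by genetic background label. In limma 9.40% of genes (1392 of 14814) passed an adjusted p of 0.05 for the label, against 0.00675% (1 gene) for rIL-33 against PBS. The tissue carried its label: all 7 skeletal muscle markers (Ckm, Acta1, Des, Mb, Ttn, Tnnt3, Actn2) were above the dim filter, with a summed intensity of 79394 to 85096 with PBS and 80728 to 86123 with rIL-33. The 5 cardiac markers summed to 773 to 986 with PBS and 793 to 885 with rIL-33. Other cells were present. The 3 fibroblast markers with values (Pdgfra, Dcn, Col1a1, while Ly6a was not analysed here) summed to 15333 to 16925 with PBS and 11704 to 13810 with rIL-33. The 3 tendon markers (Scx, Tnmd, Mkx) summed to 1542 to 2058 and 1076 to 1380. On either sum the groups did not overlap, which also held for 4.57% of single genes tested. Groups overlapped on the sum of the 3 adipocyte markers (Adipoq, Plin1, Fabp4), 2059 to 2429 with PBS and 2176 to 2228 with rIL-33. They also overlapped on S100b, the only nerve marker with values, at 118 to 148 and 120 to 138. The 4 macrophage markers (Adgre1, Cd68, Csf1r, Itgam) summed to 4717 to 5999 with PBS and 3605 to 5069 with rIL-33, the 4 smooth muscle markers (Myh11, Acta2, Cnn1, Smtn) to 6012 to 7297 and 4571 to 6514, and the satellite cell markers Pax7 and Myf5 to 631 to 831 and 635 to 802. The neutrophil markers (S100a8, S100a9, Csf3r, the first of them dim) summed to 389 to 448 with rIL-33 and to 381 to 1494 with PBS, where PBS array 4 stood apart at the top and the others reached 588. No single gene of these lists passed the threshold (limma adjusted p under 0.05), and the part of these cells in the myosin values below was not tested.

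No myosin heavy chain gene passed the test for a difference between rIL-33 and PBS. Of the 9 genes, 0 passed the threshold, 0 had an unadjusted limma p under 0.05, where 9.63% of all genes tested did, and 0 had groups that did not overlap, where 4.57% of all genes did. That count of 0 before adjustment belongs to the fit without a block: with the label as a block 1 member, Myh13, had an unadjusted limma p under 0.05, as 15.1% of all genes then did, and over all alternatives run, a count added after the data were seen, 0 to 2 members had one, these being Myh13, Myh2 or both. The estimate was higher with rIL-33 in 7 genes and lower in 2, with a median log2 difference of 0.07 beside -0.01 over all genes tested. The 95% intervals of the limma fit bounded the difference in either direction at no more than 1.42-fold, the upper bound of Myh2.

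**Figure D1:**
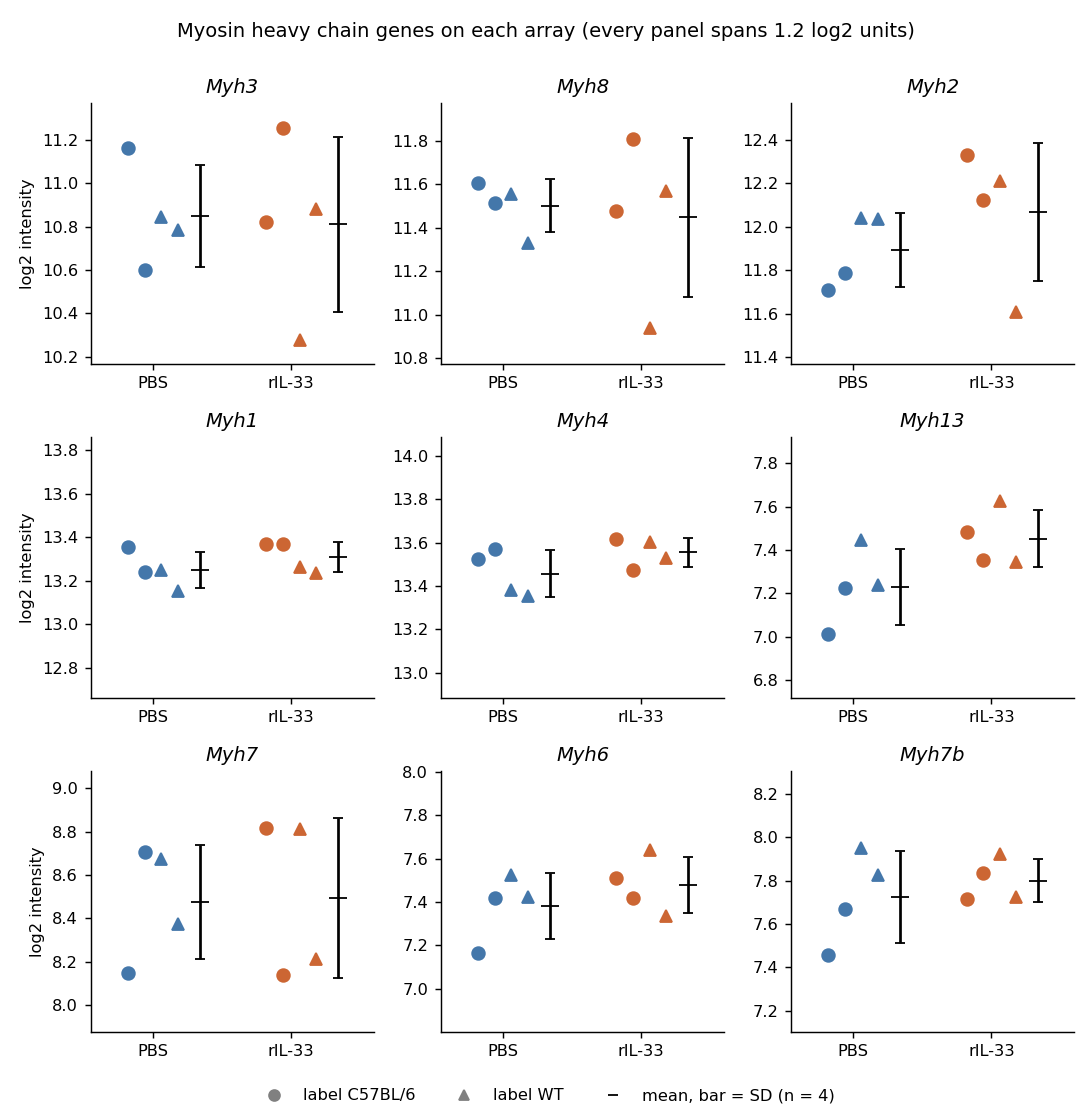
Log2 intensity (vertical axis) of the 9 myosin heavy chain genes on each of the 8 arrays, by treatment (horizontal axis), with points for arrays (circles C57BL/6 label, triangles WT label) and bars for the mean ± SD of 4. Every panel spans the same number of log2 units, so that the spread of Myh3, Myh7 and Myh2 can be set against the narrow spread of Myh1 and Myh4, and in all 9 panels the groups overlap.

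Myh3, the embryonic chain and the usual mark of newly formed fibres, was among the brighter genes in every injured muscle, between percentiles 89.7 and 95.1 of all probe sets (probe set 10377018). Its intensity was 2294, 1552, 1839 and 1763 on the PBS arrays 1 to 4, and 1809, 2446, 1242 and 1887 on the rIL-33 arrays 1 to 4. Both the highest array (rIL-33 2) and the lowest (rIL-33 3) were in the rIL-33 group, 1.97-fold apart, and the PBS arrays lay between them. The log2 level was 10.85 ± 0.23 (SD, n = 4) with PBS and 10.81 ± 0.40 (SD, n = 4) with rIL-33, a difference of -0.04 (SE 0.19, 95% interval -0.46 to 0.38, limma adjusted p = 0.968). The sign of this small difference hung on single arrays, being 0.14 without rIL-33 replicate 3 and 0.07 without PBS replicate 1.

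Myh8, the neonatal chain that follows the embryonic one, showed the same layout of arrays, between percentiles 94.2 and 97.1 (probe set 10377148). It read 3118, 2929, 3015 and 2573 with PBS and 2850, 3585, 1963 and 3037 with rIL-33. Again rIL-33 array 2 was the highest and rIL-33 array 3 the lowest, 1.83-fold apart, with PBS between. The log2 level was 11.50 ± 0.12 (SD, n = 4) with PBS and 11.45 ± 0.37 (SD, n = 4) with rIL-33, a difference of -0.05 (SE 0.16, 95% interval -0.41 to 0.30, limma adjusted p = 0.947). Without rIL-33 replicate 3 it was 0.12. That replicate also had the lowest summed levels of macrophage markers (3605), smooth muscle markers (4571), fibroblast markers (11704) and tendon markers (1076) of all 8 arrays, and their part in its Myh3 and Myh8 values was not tested.

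Myh2, the chain of the oxidative fast IIa fibres, had the largest estimate among the adult fast genes (probe set 10377055). Its intensity was 3349, 3533, 4212 and 4203 on the PBS arrays and 5145, 4456, 4747 and 3120 on the rIL-33 arrays. The first 3 rIL-33 arrays were above every PBS array and the fourth was below every PBS array. The log2 level was 11.89 ± 0.17 (SD, n = 4) with PBS and 12.07 ± 0.32 (SD, n = 4) with rIL-33, a difference of 0.17 (SE 0.15, 95% interval -0.16 to 0.51, limma adjusted p = 0.737). The estimates differed between the background labels, each with 2 arrays per treatment. With the C57BL/6 label the difference was 0.48, and with the WT label -0.13. The low rIL-33 array, replicate 4, was WT-labelled, and without it the difference over both labels was 0.33. The interaction of treatment and label was -0.61 (SE 0.25, limma adjusted p = 0.999). Myh2 was the 1 member of 9 with an interaction p under 0.05 before adjustment, which 3.19% of all genes had, while 0% passed after adjustment.

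Myh1, the chain of the IIx fibres, varied least between arrays (probe set 10377087). It read 10466, 9688, 9746 and 9107 with PBS and 10568, 10572, 9831 and 9638 with rIL-33, so that the highest and lowest arrays were 1.16-fold apart. The difference was 0.06 on the log2 scale (SE 0.07, 95% interval -0.10 to 0.22, limma adjusted p = 0.842), from 13.25 ± 0.08 (SD, n = 4) to 13.31 ± 0.07 (SD, n = 4).

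Myh4, the chain of the IIb fibres that fill most of this muscle, was the brightest of the 9 probe sets (10377117). It read 11797, 12154, 10672 and 10453 with PBS and 12567, 11372, 12427 and 11813 with rIL-33. The lowest pair of values belonged to the WT-labelled PBS arrays, and the other 6 arrays were intermixed. The lowest of all was PBS array 4, the array with the highest neutrophil sum (1494), whose part in this value was not tested. The log2 level was 13.46 ± 0.11 (SD, n = 4) with PBS and 13.55 ± 0.07 (SD, n = 4) with rIL-33, a difference of 0.10 (SE 0.08, 95% interval -0.07 to 0.27, limma adjusted p = 0.702). With the WT label it was 0.20 and with the C57BL/6 label -0.0024. Myh4 lay between percentiles 99.6 and 99.7 of all probe sets on every array and Myh1 between 99.5 and 99.6, close to the top of the range of intensities. Whether their folds were compressed there was not tested.

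Myh13, the extraocular chain, was faint but above the dim filter and had the smallest p-value of the family (probe set 10377181). It read 129, 150, 174 and 151 with PBS and 179, 163, 197 and 163 with rIL-33. PBS array 3 lay among the rIL-33 values and the other 3 PBS arrays below them. The log2 level was 7.23 ± 0.18 (SD, n = 4) with PBS and 7.45 ± 0.13 (SD, n = 4) with rIL-33, a difference of 0.22 (SE 0.10, 95% interval -0.01 to 0.45, limma adjusted p = 0.520). With the background label as a block its limma adjusted p was 0.306. The gene was between percentiles 34.97 and 45.70 of all probe sets on each array.

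Myh7, the slow chain of type I fibres, had a wide spread in both groups (probe set 10419934). It read 284, 418, 408 and 332 with PBS and 451, 282, 449 and 297 with rIL-33. Each group held a high and a low pair: arrays 2 and 3 were high with PBS, and arrays 1 and 3 with rIL-33. The log2 level was 8.48 ± 0.26 (SD, n = 4) with PBS and 8.50 ± 0.37 (SD, n = 4) with rIL-33, a difference of 0.02 (SE 0.18, 95% interval -0.39 to 0.43, limma adjusted p = 0.984). This sign also depended on the array, with -0.09 without PBS replicate 1 and -0.09 without rIL-33 replicate 1.

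Myh6, the alpha chain of the heart, read 144, 171, 184 and 171 with PBS and 182, 171, 199 and 162 with rIL-33 (probe set 10419900). Its log2 difference was 0.09 (SE 0.10, 95% interval -0.12 to 0.31, limma adjusted p = 0.798). Myh7b read 176, 204, 247 and 227 with PBS and 210, 228, 243 and 212 with rIL-33 (probe set 10477673), a difference of 0.07 (SE 0.11, 95% interval -0.16 to 0.31, limma adjusted p = 0.871). For both genes the lowest array was PBS 1, as it was for Myh13, and without PBS replicate 1 the sign of the Myh7b difference turned (-0.02). PBS array 1 also had the lowest lower quartile of intensity of the 8 arrays, 88.3 against 90.3 to 107.3 on the others, and the part of this in these 3 faint genes was not tested.

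Myh7b, Myh6 and Myh7 host the microRNAs of the muscle-enriched miR-208 and miR-499 group in their introns. The mature sequences are shown with the seed, bases 2 to 8, in capitals, because the seed is shared in part.
mmu-miR-208a-3p (in Myh6): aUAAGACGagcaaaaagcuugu
mmu-miR-208b-3p (in Myh7): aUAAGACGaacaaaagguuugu
mmu-miR-499-5p (in Myh7b): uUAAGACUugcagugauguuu

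The seeds of miR-208a-3p and miR-208b-3p were identical in these RefSeq entries, and that of miR-499-5p ended in another base. The array's probe sets for the precursor genes were dim, with intensities of 17.6 to 23.0 for Mir208a and 29.4 to 44.8 for Mir499 over all 8 arrays, so neither was tested, and Mir208b was not analysed here.

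**Figure D2:**
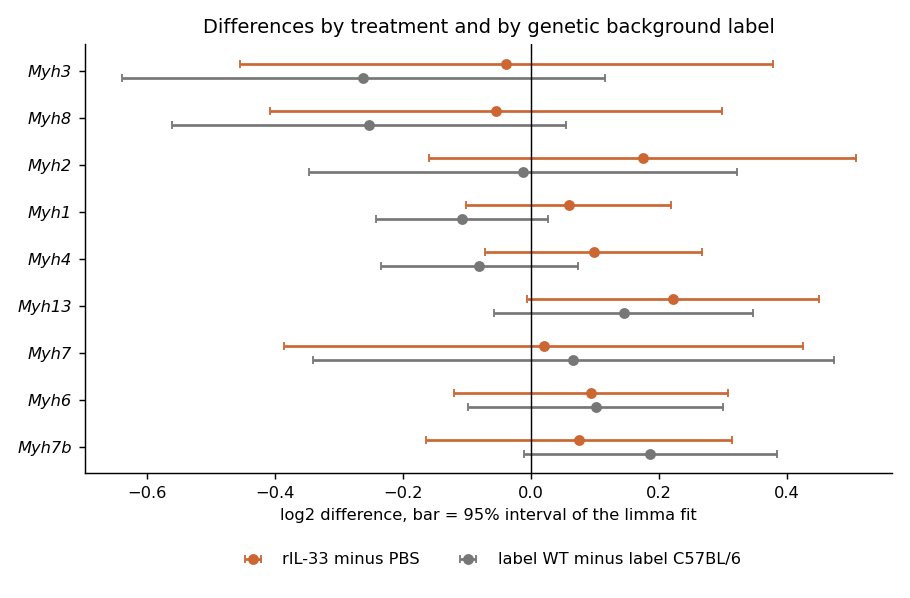
Log2 difference (horizontal axis) of each myosin heavy chain gene for rIL-33 minus PBS (orange) and for WT minus C57BL/6 label (grey), with the 95% interval of the limma fit over 8 arrays. Every interval crosses 0, and the widest belong to Myh3, Myh7, Myh8 and Myh2.

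The genetic background label left the family without a call as well. By label 0 of the 9 genes passed the threshold, where 9.40% of all genes did, 0 had an unadjusted limma p under 0.05 (32.9% of all genes), and 0 had labels that did not overlap (20.2% of all genes). The WT-labelled arrays had higher estimates in 4 genes and lower ones in 5, with a median log2 difference of -0.01 (-0.02 over all genes). Both immature genes had lower estimates with the WT label, Myh3 by -0.26 (SE 0.17, limma adjusted p = 0.299) and Myh8 by -0.25 (SE 0.14, limma adjusted p = 0.225). Myh7b had the smallest p-value, with a difference of 0.19 (SE 0.09, limma adjusted p = 0.171). The quartiles of intensity also split by label, and their part in these estimates was not tested.

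Shares of the summed intensity of 6 genes (Myh3, Myh8, Myh2, Myh1, Myh4, Myh7) were set against each other between arrays. Probe sets differ in affinity, so they are not shares of transcripts, and no test was made on them. The immature share (Myh3 and Myh8) was 17.3%, 14.8%, 16.2% and 15.3% on PBS arrays 1 to 4 and 14.0%, 18.4%, 10.5% and 16.5% on rIL-33 arrays 1 to 4. The PBS muscles were closely alike, at 15.9% ± 1.11 (SD, n = 4), while the rIL-33 muscles held the lowest and the highest share of all, at 14.8% ± 3.45 (SD, n = 4). The difference of -1.05 percentage points was smaller than the SD of either group, and it was 0.412 without rIL-33 replicate 3. Within the labels it was 0.151 (C57BL/6) and -2.25 (WT).

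**Figure D3:**
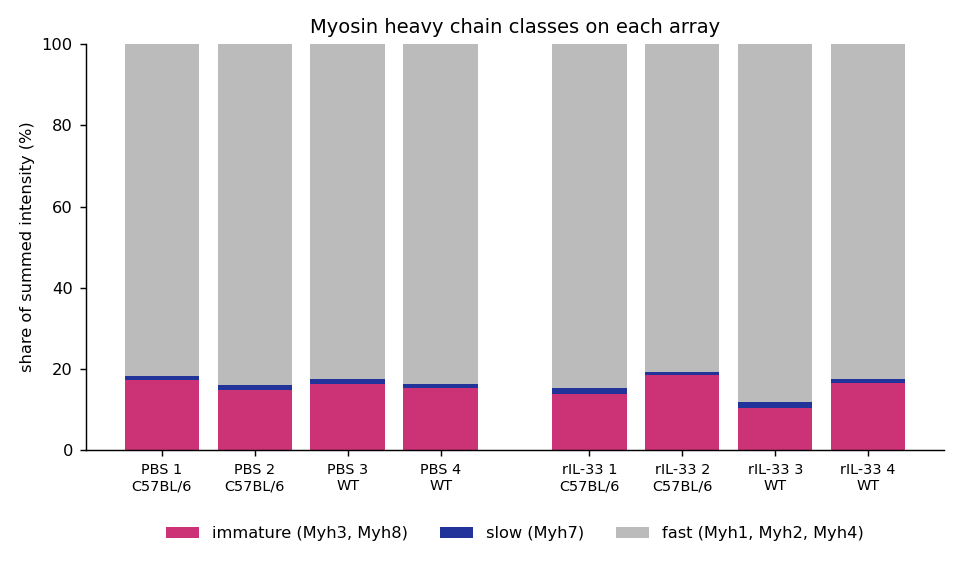
Share (percent, vertical axis) of the summed intensity of 6 myosin heavy chain genes held by the immature, slow and fast genes on each of the 8 arrays. The immature share ranges from 14.8% to 17.3% on the PBS arrays and from 10.5% to 18.4% on the rIL-33 arrays.

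The adult fast share (Myh2, Myh1 and Myh4), nearly the complement of the immature one, was 82.9% ± 0.958 (SD, n = 4) with PBS and 84.0% ± 3.18 (SD, n = 4) with rIL-33. The slow share (Myh7) was 0.906%, 1.38%, 1.37% and 1.17% with PBS and 1.35%, 0.862%, 1.46% and 0.998% with rIL-33. Its means, 1.21% ± 0.221 and 1.17% ± 0.285 (SD, n = 4 each), were closer than the spread in either group. Among the 3 fast genes alone, Myh2 held 13.1%, 13.9%, 17.1% and 17.7% with PBS and 18.2%, 16.9%, 17.6% and 12.7% with rIL-33. With PBS the WT-labelled arrays had the higher shares of Myh2, and with rIL-33 the lowest share was on a WT-labelled array.

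Some of the genes varied together from array to array. Pearson's r was computed over the 8 arrays for all 36 pairs, 19 positive and 17 negative. At an unadjusted exact permutation p under 0.05 there were 7 pairs by Pearson's r and 8 by Spearman's rho, and 0 by either after Benjamini-Hochberg adjustment over the 36 pairs. All points share 1 normalization, and each background label holds 4 arrays, too few for a correlation within it, so r after removal of the treatment and label terms is given instead.

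Myh3 and Myh8 were high and low on the same arrays. Pearson's r was 0.89 (exact permutation p = 0.0038, adjusted p = 0.069) and Spearman's rho 0.93 (exact permutation p = 0.0022, adjusted p = 0.080). After the treatment and label terms r was 0.86. Leaving out the arrays farthest from the median of Myh3, 2 in number, brought r to 0.48, so the relation rests in good part on those arrays.

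Myh3 and Myh7 ran in opposite directions. Pearson's r was -0.78 (exact permutation p = 0.0094, adjusted p = 0.085) and Spearman's rho -0.81 (exact permutation p = 0.022, adjusted p = 0.19). It was -0.83 after the treatment and label terms and -0.68 without the 2 farthest arrays, and it stayed between -0.87 and -0.71 when each array was left out in turn. The ratio of Myh3 to Myh7 intensity, read only between arrays, spanned 3.72 to 8.08 with PBS and 2.77 to 8.67 with rIL-33. Myh8 and Myh7 had r = -0.60 and rho = -0.81 (exact permutation p = 0.099 and p = 0.022, adjusted p = 0.33 and 0.19). Myh8 and Myh6 had r = -0.60 and rho = -0.76 (exact permutation p = 0.12 and p = 0.037, adjusted p = 0.34 and 0.19). Without the 2 arrays farthest from the median of Myh8, r was -0.21 with Myh7 and -0.42 with Myh6.

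**Figure D4:**
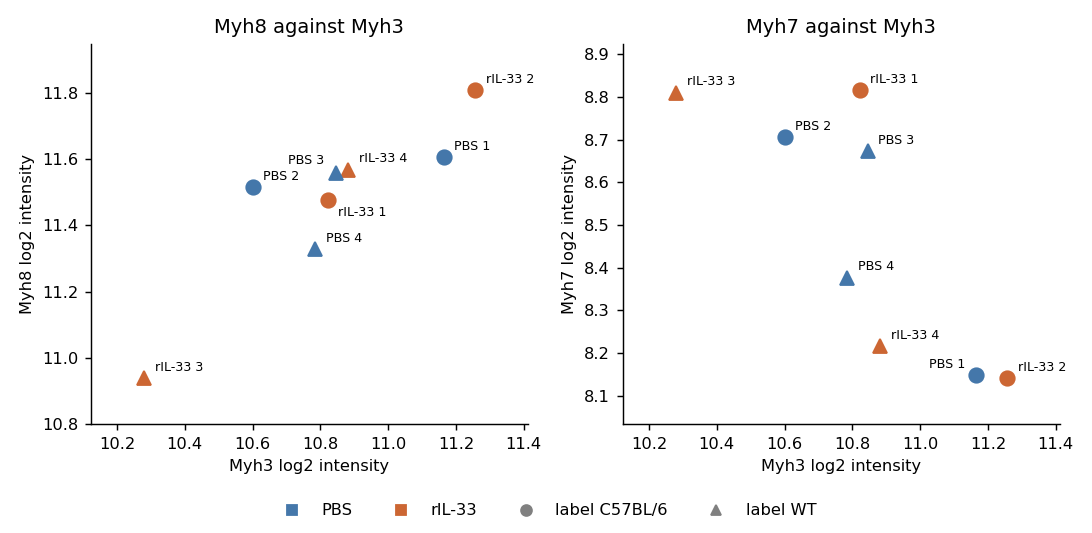
Log2 intensity of Myh8 (left) and Myh7 (right) against that of Myh3 (horizontal axes) on the 8 arrays, coloured by treatment and shaped by label. Myh8 follows Myh3 (r 0.89) and Myh7 runs against it (r -0.78), and rIL-33 replicates 2 and 3 lie at opposite ends.

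A second set of pairs lay among Myh7, Myh2, Myh6, Myh13 and Myh7b. In it Myh7 had an unadjusted p under 0.05 only with Myh6. With Myh13 its r was 0.65 and rho 0.55 (exact permutation p = 0.082 and p = 0.17). With Myh7b they were 0.40 and 0.07 (exact permutation p = 0.33 and p = 0.88). Myh7 and Myh6, neighbours on chromosome 14, had r = 0.79 and rho = 0.76 (exact permutation p = 0.0094 and p = 0.037, adjusted p = 0.085 and 0.19), and r was 0.86 after the treatment and label terms and 0.81 without the 2 farthest arrays. Myh13 and Myh6 had r = 0.92 and rho = 0.79 (exact permutation p = 0.0023 and p = 0.028, adjusted p = 0.069 and 0.19), with 0.96 after the treatment and label terms and 0.62 without the 2 farthest arrays. Myh6 and Myh7b had r = 0.84 and rho = 0.67 (exact permutation p = 0.012 and p = 0.083, adjusted p = 0.085 and 0.27), with 0.82 after those terms and 0.44 without the 2 farthest. Myh13 and Myh7b had r = 0.79 and rho = 0.69 (exact permutation p = 0.022 and p = 0.069, adjusted p = 0.12 and 0.25), with 0.77 after those terms and 0.31 without the 2 farthest. Myh2 and Myh6 had r = 0.76 and rho = 0.74 (exact permutation p = 0.023 and p = 0.046, adjusted p = 0.12 and 0.21), with 0.80 after those terms and 0.55 without the 2 farthest arrays. Myh2 and Myh13 had r = 0.68 and rho = 0.81 (exact permutation p = 0.059 and p = 0.022, adjusted p = 0.24 and 0.19). For this pair r was 0.76 after those terms and 0.74 without the 2 farthest arrays. The low values of PBS array 1 enter the pairs of Myh13, Myh6 and Myh7b.

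Among the adult fast genes r was 0.51 for Myh1 and Myh4, 0.25 for Myh2 and Myh1, and 0.08 for Myh2 and Myh4. After the treatment and label terms these values were -0.11, 0.17 and -0.19. For Myh2 and Myh1, the only pair still positive, r was 0.69 on the rIL-33 arrays and -0.76 on the PBS arrays, 4 of each. Whether signal of near-identical paralogs entered each other's probe sets was not tested, since probe sequences were not used here.

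**Figure D5:**
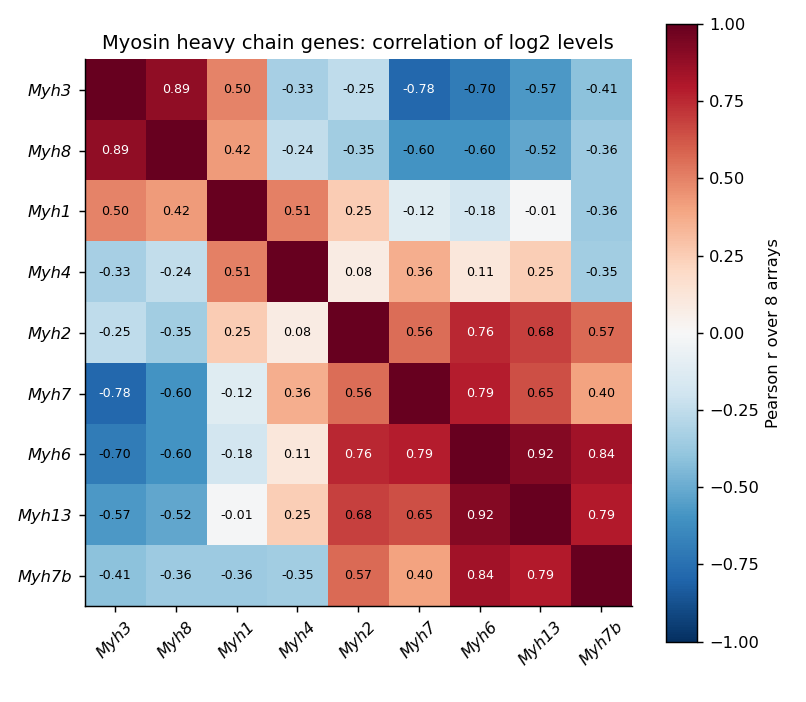
Pearson's r of log2 intensity over 8 arrays for every pair of the 9 myosin heavy chain genes (colour scale from -1 to 1). Myh3 and Myh8 are positive with each other and negative with Myh7, Myh6, Myh13 and Myh7b, which are positive among themselves.

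The genes outside the family whose array pattern was most like that of each myosin were taken by Pearson's r over the 8 arrays, among 14805 genes. For Myh3 they were Tnnc1, the slow and cardiac troponin C (r = 0.98), Macf1, which links microtubules and actin (0.96), and Pkhd1 (0.96). For Myh8 they were Casq2, the cardiac and slow-fibre calsequestrin (0.98), Zfpm2 (0.97) and Tedc2 (0.96). In all, 32 genes had r of at least 0.9 with Myh3 and 27 with Myh8.

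Myh4 had far more such companions, 388 genes at r of at least 0.9, led by Sult1a1 (0.98), Abcc9 (0.98) and Bola3 (0.98). Myh1 had 27, led by Timm10, a chaperone of mitochondrial import (0.98), Kif5b, a kinesin (0.97), and Psmd8, a proteasome subunit (0.96). Myh2 had 3, Smtnl1 (0.92), Eif2s3y (0.91) and Pigv (0.91). Myh7 had 4, led by Neu3 (0.94), Krt222 (0.94) and Dhodh (0.92). The main axis of variation between the arrays, the first principal component over all genes tested, held 42.3% of the variance. Its ends were rIL-33 array 1 (21.9) and PBS arrays 3 and 4 (-21.7 and -18.3). Myh4 was highest on the first and lowest on the other arrays named. The part of this axis in the correlations with Myh4 here and below was not tested.

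The partners of the fast chains were read from a list of 14 genes of the fast fibre, all tested: light chains, fast troponins, the calcium pump Atp2a1, parvalbumin and others. With rIL-33 0 of the 14 passed the threshold and 0 had an unadjusted limma p under 0.05, with 13 estimates higher and 1 lower and a median log2 difference of 0.10 (-0.01 over all genes). The largest were Mylk2, the skeletal myosin light chain kinase, at 0.22 (SE 0.13, limma adjusted p = 0.581), and Mylpf, the fast regulatory light chain, at 0.20 (SE 0.18, limma adjusted p = 0.745). All 14 correlated above 0 with Myh4, with a median r of 0.86 against -0.04 over all genes. Tnnc2, the fast troponin C, had r = 0.95 with Myh4, Actn3 0.95 and Mybpc2 0.94. With Myh3 the median r of the list was -0.15.

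By background label, 2 of the 14 fast partners passed the threshold, which 9.40% of all genes did. Both were lower on the WT-labelled arrays: Mylpf by -0.51 (SE 0.08, limma adjusted p = 0.016) and Tnni2, the fast troponin I, by -0.31 (limma adjusted p = 0.047). Neither call held throughout. Mylpf was not past the threshold without rIL-33 replicate 1 (-0.49, adjusted p = 0.082) or without PBS replicate 1 (-0.48, adjusted p = 0.068), 2 (-0.49, adjusted p = 0.053), 3 (-0.51, adjusted p = 0.060) or 4 (-0.46, adjusted p = 0.056). Tnni2 was lost without the same arrays (adjusted p between 0.0999 and 0.137), without rIL-33 replicate 4 (-0.30, adjusted p = 0.077), and also with quantile (-0.23, adjusted p = 0.14) or cyclic loess normalization (-0.25, adjusted p = 0.093) and with no filter on dim genes (adjusted p = 0.052).

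The 13 slow partners did not keep together with Myh7. With rIL-33 0 of 13 passed the threshold and 0 had an unadjusted limma p under 0.05, with 6 estimates higher, 7 lower and a median of -0.02. The largest were Csrp3, the muscle LIM protein, at -0.45 (SE 0.22, limma adjusted p = 0.543; -0.03 within the C57BL/6 label and -0.87 within the WT label), and Myl3, the slow essential light chain, at 0.27 (SE 0.25, limma adjusted p = 0.761). Their median r was 0.72 with Myh3 and -0.50 with Myh7. Named after their values were seen, Tnnc1 (0.98 with Myh3, -0.79 with Myh7), Tnni1, the slow troponin I (0.87 and -0.82), and Atp2a2, the slow calcium pump (0.85 and -0.96), followed Myh3. Only 4 of the 13 were above 0 with Myh7, and they were Myl3 (0.69), Myl2, the slow regulatory light chain (0.66), Mybpc1 (0.45) and Ankrd2 (0.31). By label 1 of the 13 passed, beside 9.40% of all genes: Tnnt1, the slow troponin T, was lower on the WT-labelled arrays by -0.35 (limma adjusted p = 0.040), and Casq2 read -0.32 (limma adjusted p = 0.135). The Tnnt1 call was lost without rIL-33 replicate 1, 3 or 4, without any 1 of the PBS arrays (adjusted p between 0.055 and 0.11 over these 7), and under quantile (-0.25, adjusted p = 0.12) and cyclic loess normalization (-0.25, adjusted p = 0.14).

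Of 18 partners of the immature chains, 16 had values and all 16 were tested (H19 was not analysed here, and Tmem8c is an older symbol of Mymk, which was). With rIL-33 0 passed the threshold and 0 had an unadjusted limma p under 0.05, with 3 estimates higher, 13 lower and a median of -0.08. The largest were Ankrd1, a stress-induced ankyrin repeat protein, at -0.38 (SE 0.30, limma adjusted p = 0.715), and Myog, the myogenic factor of differentiation, at -0.22 (SE 0.19, limma adjusted p = 0.738). Their correlation with Myh3 was above 0 in 15 of 16 (median r 0.74) and with Myh7 in 1 of 16 (median r -0.66), beside medians of 0.03 and -0.04 over all genes. Ncam1, an adhesion molecule of regenerating fibres, had r = 0.94 with Myh3, the fetal cardiac actin Actc1 0.85, the cardiac troponin T Tnnt2 0.85, the embryonic light chain Myl4 0.85 and the fetal acetylcholine receptor subunit Chrng 0.84. By label Ankrd1 read 0.67 (limma adjusted p = 0.077) and Myog -0.46 (limma adjusted p = 0.055), neither past the threshold. Under some alternatives they passed it. Ankrd1 did with array weights (limma adjusted p = 0.018). Myog did with array medians centred and without rIL-33 replicate 4 (limma adjusted p = 0.048 and 0.034).

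Of 12 genes of the thick filament and M band, 11 were tested, 0 passed the threshold and 2 had an unadjusted limma p under 0.05, both higher with rIL-33. Over all genes 9.63% had such a p, and 45.6% of those were higher. The list's pair was Mylk4, a myosin light chain kinase, at 0.32 (SE 0.14, limma adjusted p = 0.509), and Myom1, myomesin of the M band, at 0.25 (SE 0.09, limma adjusted p = 0.489). The list had 9 estimates higher and 2 lower, with a median of 0.14 and a median r of 0.67 with Myh4. By label its largest values were Mybpc3 at 0.28 (limma adjusted p = 0.071) and Mybph at -0.24 (limma adjusted p = 0.109). Mybpc3 passed the threshold with array weights and without rIL-33 replicate 2 or 4 (limma adjusted p from 0.035 to 0.047).

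Of 13 genes that fold, chaperone or degrade myosin, 12 were tested (Hsp90ab1 was not analysed here) and 0 passed the threshold, with 3 at an unadjusted limma p under 0.05 (9.63% of all genes), all higher with rIL-33 (45.6% of those genes). They were Smyd2, a methyltransferase that acts on myosin's chaperone, at 0.34 (SE 0.11, adjusted p = 0.489), Cul3, a ubiquitin ligase scaffold, at 0.29 (SE 0.10, adjusted p = 0.489), and Trim55, the ligase MuRF2, at 0.25 (SE 0.10, adjusted p = 0.489). The list had 10 estimates higher and 2 lower, a median of 0.18 and a median r of 0.87 with Myh4. Trim63, the MuRF1 ligase that degrades myosin, read -0.52 by label (limma adjusted p = 0.059), and Fbxo32, atrogin-1, -0.35 (limma adjusted p = 0.127). Trim63 passed the threshold with array weights and without rIL-33 replicate 2 or 3 (limma adjusted p from 0.0073 to 0.034). Fbxo32 passed it with array weights and without rIL-33 replicate 3 (limma adjusted p = 0.021 and 0.034).

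Of 27 regulators of fibre type, 23 were tested, and Mir499 was among the others as dim. With rIL-33 0 passed the threshold and 5 had an unadjusted limma p under 0.05 (9.63% of all genes), all higher (45.6% of those genes), with 17 estimates higher, 6 lower and a median of 0.12. The largest were Sox6, a repressor of slow fibre genes, at 0.34 (SE 0.10, limma adjusted p = 0.489), and Ppargc1a, the coactivator PGC-1α of oxidative fibres, at 0.32 (SE 0.09, limma adjusted p = 0.489). Eya1, a transcriptional coactivator, read 0.32, Tbx15, a factor of glycolytic fibres, 0.26, and Eya4 0.21 (limma adjusted p from 0.489 to 0.496). By label the largest were Six4 at -0.32 (limma adjusted p = 0.058) and Tead4 at -0.20 (limma adjusted p = 0.071). Six4 passed the threshold with array weights and without rIL-33 replicate 2 (limma adjusted p = 0.017 and 0.034).

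Of 6 myosin heavy chain genes of other cells and of minor sarcomeric type, 4 were tested (Myh16 was not analysed here and Myh15 was dim), and 0 passed the threshold, with 1 at an unadjusted limma p under 0.05 (9.63% of all genes). That gene was Myh9, the non-muscle chain IIA found in most cells, at -0.25 with rIL-33 (SE 0.11, limma adjusted p = 0.516), and Myh11, the smooth muscle chain, read 0.14 (SE 0.10, limma adjusted p = 0.685). Myh9 correlated with Myh3 at r = 0.66 and with Myh7 at -0.77, and Myh10, another non-muscle chain, at 0.88 and -0.60. Myh14, also a non-muscle chain, went the other way, at -0.85 with Myh3 and 0.79 with Myh7. By label Myh11 read -0.15 (limma adjusted p = 0.268) and Myh10 -0.08 (limma adjusted p = 0.565).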

How the data were processed

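Gene expression was measured on 8 Affymetrix Mouse Gene 1.0 ST arrays, 4 with rIL-33 and 4 with PBS. The authors deposited linear intensities of 24922 probe sets, for which the submitters' processing notes name RMA and Affymetrix Power Tools without versions. RMA corrects background, equalises the arrays' distributions and summarises probes. In the deposited values the quartiles still differed between arrays. Log2 was taken here. In the platform annotation 21425 probe sets matched 1 symbol; those with several symbols (1399) or no entry (2098) were left out. Each of 19752 genes was represented by its brightest probe set on average, and 4938 genes under the 25th percentile (log2 6.65) were left out as dim.

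Differences were fitted with lmFit and eBayes of limma 3.58.1 (R 4.3.3) over 14814 genes, with no block for treatment, with treatment and label as additive terms for the label, and with their interaction. P-values were Benjamini-Hochberg adjusted over all genes tested, with a threshold of 0.05. The code was tested on simulated data. Pearson's r and the exact permutation p-values were computed with numpy in Python 3.11.15, and ranks and the adjustment over pairs with scipy 1.17.1. The permutation p-values were added to a plan that had named none. Figures were drawn with matplotlib 3.10.9.

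The 9 genes, the 7 lists and the markers were chosen with earlier results of these data known. The text names all 9 genes, per list the 2 tested genes of largest difference by treatment and by label, and per myosin the 3 genes of highest r; Trim55, Eya1, Eya4, Tbx15 and genes named only for a correlation were added after their values were seen. Alternatives were other normalizations, dim filters, eBayes settings, array weights, blocks, each label alone, probe set means and each array left out. There is no read depth, and precision is limited by the number of arrays.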

Additional observations from a re-analysis of the deposited data

Results flagged for a closer look

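Myh2 was the 1 myosin heavy chain gene in which the difference between rIL-33 and PBS itself differed between the background labels before adjustment. The difference with the WT label minus that with the C57BL/6 label was -0.61 on the log2 scale (limma interaction, SE 0.25, unadjusted p = 0.0358, adjusted p = 0.999). It was 0.48 in the C57BL/6-labelled arrays and -0.13 in the WT-labelled ones, from 2 arrays of each treatment per label. No array stood outside its group by Dixon's criterion (0.829 for 4 arrays) in any of the 24 groups examined, and the ratio of the gap to the range was highest, 0.712, for Myh2 in the rIL-33 group.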

How the results depend on the processing

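The 9 myosin heavy chain genes gave 0 calls by treatment and 0 by label under every alternative run, and their smallest adjusted p by treatment over all alternatives was 0.28. Of 177 differences by treatment of the 9 genes under the alternatives, 160 kept their sign and 17 reversed. Genes past the threshold by treatment numbered 1, with 0 under the replicate block, 2 in the C57BL/6-labelled arrays alone, 4 in the WT-labelled arrays alone and 1 to 2 with an array left out. The replicate block changed no call of a myosin gene; under it 1 of the 9, Myh13, had an unadjusted p under 0.05, as 15.7% of genes did. The numbers were to pair the samples only where every pair's deviations correlated over 0.1, and they did so at 0.44, -0.19, 0.43 and 0.54, so they were not taken to pair them; rIL-33 replicate 1 correlated more with PBS replicate 2 (0.63) than with its own number. Genes past the threshold by label numbered 1392, with 415 under quantile and 471 under cyclic loess normalization, 892 with the 50th percentile filter, 3432 with array weights and 10 to 2509 with an array left out; in each of these the cause was not tested.

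With array weights the treatment difference reversed for Myh3 (0.15), Myh8 (0.093), Myh7 (-0.16) and Myl3 (-0.030). In the C57BL/6-labelled arrays alone it reversed for Myh3 (0.16), Myh8 (0.081) and Myh4 (-0.0024), and in the WT-labelled arrays alone for Myh2 (-0.13), Myh7 (-0.012) and Myh7b (-0.063). With an array left out it ranged from -0.19 to 0.14 for Myh3, -0.17 to 0.12 for Myh8, -0.090 to 0.14 for Myh7 and -0.015 to 0.15 for Myh7b. The label difference reversed for Myh2 under quantile (0.065) and cyclic loess normalization (0.065), for Myh10 under quantile normalization (0.0029) and for Myh7 with array weights (-0.21), and with an array left out ranged from -0.088 to 0.17 for Myh2 and -0.063 to 0.21 for Myh7. The immature share difference ranged from -2.25 to 0.412 percentage points and the slow one from -0.136 to 0.0655 with an array left out. The filter at the 50th percentile removed Myh13 and other faint genes, so it gave no value for them.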
